A study of Mus musculus with 20 samples.

Results

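The genes described here are 40 interferon-stimulated genes of mouse liver, chosen by name as genes induced by type I or type II interferon together with their regulators. They are 40 of the 34934 entries in the deposited tables, of which 34933 carry a gene name, and all 40 were found. The livers came from 20 diet-induced obese (DIO) wild-type (WT) mice in 4 groups of 5. One group received vehicle, one rosuvastatin, one GGOH, and one rosuvastatin and GGOH together, here called the combination. Every group, vehicle included, was obese, so no lean liver was compared. Rosuvastatin inhibits HMG-CoA reductase, the enzyme that commits carbon to the mevalonate pathway, and GGOH is geranylgeraniol, an isoprenoid alcohol that cells can convert to the geranylgeranyl group made downstream of that enzyme. Dose, route, duration, diet, strain, age, sex and batch are not given in the sources used here. The labels number the mice 1 to 5 in each group without saying how they were housed or sampled, and p-values measure the spread between these livers.

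Interferons are cytokines that cells release on sensing viral nucleic acid or on immune activation. Type I interferon acts through the receptor pair IFNAR1 and IFNAR2 and a transcription factor complex that contains STAT2 and IRF9 and binds the interferon-stimulated response element. Type II interferon, interferon-gamma, acts through its own receptor, and many of its target promoters also respond to the induced factor IRF1. In liver, hepatocytes and Kupffer cells, the resident macrophages, both carry these receptors. The members comprise sensors of viral RNA or DNA, transcription factors, feedback regulators, the Ifit and Oas antiviral families, other antiviral effectors, GTPases typical of the interferon-gamma response, immunoproteasome subunits and chemokines.

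The promoters printed here show a sequence element that many members share. Members were not chosen by sequence but as genes induced by interferon, so a shared response element is not independent of that choice. RefSeq promoter windows on GRCm38.p6, each of 300 bases from 250 before to 50 after an annotated start, were matched to 30 of the 40 members. The core of the interferon-stimulated response element was taken as GAAA and, after any 2 bases (NN), a further GAAA. It was searched on both strands, where the other strand reads TTTC, NN, TTTC, as was the palindromic core TTCNNNGAA of the gamma-activated site. Members with the first core numbered 19 of 30 (63.3%), against 1131 of 32851 promoters (3.44%) and 3.99% of genes. The gamma-site core was in 7 of 30 members (23.3%), against 8.3% of promoters and 9.55% of genes. All 5 GTPases with a window held the response-element core, as did 3 of 4 Ifit genes and 3 of 5 Oas genes, while neither immunoproteasome gene did. A match is a run of letters and was not tested as a binding site. Below, capitals mark every core found, and each stretch runs 5′ to 3′ along the gene's own strand with up to 25 bases on either side. The GTPase promoters come first because, of the 9 roles, this one had the highest median ratio of GGOH mouse 2 to the other livers, followed by Isg15, Ifit1 and the near-copies Ifit3 with Ifit3b and Oas1a with Oas1g.
Igtp, chr11:58199486-58199555, plus strand: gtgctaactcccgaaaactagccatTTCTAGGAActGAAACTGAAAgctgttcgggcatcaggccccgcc
Irgm1, chr11:48871421-48871475, minus strand: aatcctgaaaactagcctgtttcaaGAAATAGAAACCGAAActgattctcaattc
Gbp2, chr3:142620579-142620638, plus strand: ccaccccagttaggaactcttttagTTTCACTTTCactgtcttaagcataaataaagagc
Gbp3, chr3:142559974-142560039, plus strand: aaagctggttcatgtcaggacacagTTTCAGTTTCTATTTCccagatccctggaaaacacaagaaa
Gbp7, chr3:142530205-142530317, plus strand: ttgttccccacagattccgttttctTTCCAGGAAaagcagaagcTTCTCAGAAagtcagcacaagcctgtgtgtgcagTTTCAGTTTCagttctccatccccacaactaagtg
Isg15, chr4:156200850-156200921, minus strand: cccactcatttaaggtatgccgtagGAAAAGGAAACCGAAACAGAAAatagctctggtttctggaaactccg
Ifit1, chr19:34640760-34640838, plus strand: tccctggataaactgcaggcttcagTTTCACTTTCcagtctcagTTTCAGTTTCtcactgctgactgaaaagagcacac
Ifit3, chr19:34583348-34583441, plus strand: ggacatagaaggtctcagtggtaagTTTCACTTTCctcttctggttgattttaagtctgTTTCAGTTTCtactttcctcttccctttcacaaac
Ifit3b, chr19:34607744-34607837, plus strand: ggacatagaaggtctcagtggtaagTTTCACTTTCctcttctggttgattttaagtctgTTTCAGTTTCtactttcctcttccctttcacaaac
Oas1a, chr5:120907526-120907648, minus strand: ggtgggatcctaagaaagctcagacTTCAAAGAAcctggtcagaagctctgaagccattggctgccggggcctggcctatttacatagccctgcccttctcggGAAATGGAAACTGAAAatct
Oas1g, chr5:120887614-120887656, minus strand: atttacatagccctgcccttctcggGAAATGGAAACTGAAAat
Of all cores upstream of a start, the nearest began 12 bases before it in Oas1g and 14 bases before it in Oas1a. In Igtp it began 34 bases before the start, with a gamma-site core at 45 bases before it, and in Gbp2 59 bases before it. Isg15, Gbp3, Irgm1, Oas1a and Oas1g held overlapping copies. The Ifit3 and Ifit3b stretches were identical over all 94 bases, and those of Oas1a and Oas1g over the 43 bases they share. Their transcripts overlap too: 61.8% of the 31-base words of Ifit3 also occur in Ifit3b, and 68.7% of those of Oas1a in Oas1g. How the counting divided reads within those pairs is uncertain, so a difference between Ifit3 and Ifit3b, or between Oas1a and Oas1g, cannot be read as that of 1 gene alone.

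Levels are given as TPM, a share of the library scaled by transcript length, which allows genes to be compared within a liver. Differences between groups are log2 fold changes fitted to the estimated counts by edgeR, with the standard error (SE). The module was led by Iigp1, an immunity-related GTPase that attacks the membranes of vacuoles holding parasites or bacteria, at a mean of 204 TPM over 20 mice. Ifi27, an interferon-induced mitochondrial protein, followed at 98.3 TPM, then Bst2 (tetherin, which holds budding virions at the cell surface) at 91.2 TPM, and Psmb8 at 32.8 TPM. Altogether 17 members averaged at least 10 TPM, 20 lay between 1 and 10 TPM, and 3 (Mx1, Oas2 and Oas3) were under 1 TPM. Every member passed the filter on low counts. The smallest total belonged to Oas3, with 346 counts over the 20 livers and as few as 3 in 1 liver.

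Library totals ran from 8548120 to 18373913 counts, and the members' counts summed to between 10167 and 64147 per library. Mitochondrial transcripts took 27.9% of combination mouse 2 and 29.2% of combination mouse 3, the latter also the smallest library, against 8.06% to 17.1% elsewhere. In vehicle mouse 1 the members' average log2(TPM + 1) lay 0.42 above their mean over the 20 mice, while their average log2 CPM (counts scaled to a library total adjusted by TMM) lay at -0.04. The 2 measures differ in both the library scaling and the length scaling, and the TMM factor of this library, 1.25, was the highest of the 20. Vehicle mouse 1 and combination mice 2 and 3 are left out in 1 of the alternatives below. The 6 hepatocyte markers, led by the albumin gene Alb, summed to between 25747 and 71669 TPM in the 20 livers. These are bulk tissue profiles, in which more cells of a type and more RNA per cell cannot be told apart.

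None of the 40 members changed between groups by edgeR's quasi-likelihood test with Benjamini-Hochberg adjustment over the 12789 genes tested. This held for rosuvastatin against vehicle (background 0.0% of genes called, smallest adjusted p of a member 0.973), for GGOH against vehicle (0.0%, 1.00) and for the combination against rosuvastatin (0.0%, 1.00). The same was found for the combination against vehicle (0.0%, 0.817), the combination against GGOH (0.0%, 0.348) and the interaction, which asks whether rosuvastatin acted differently with and without GGOH (0.0%, 0.999). A joint test for any difference among the 4 groups called 1 gene (0.00782%), which was no member, and 5.28% of genes had an unadjusted p under 0.05. The member nearest to a call in that joint test was Iigp1, with an unadjusted p of 0.00675 and an adjusted p of 0.797, and 6 of the 40 members had an unadjusted p under 0.05. DESeq2 called 4, 1, 2, 4, 0 and 0 genes in the 6 comparisons in that order (0.0193%, 0.00483%, 0.00965%, 0.0193%, 0.0% and 0.0% of genes), none of them a member. At an unadjusted p under 0.05 it had 2, 7, 0, 5, 10 and 4 members, against a background of 3.07%, 2.42%, 1.42%, 4.25%, 10.1% and 2.44% of genes.

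How many members lay above or below the comparison group varied. With GGOH 35 members lay above vehicle and 5 below, with a median log2 fold change of 0.32, where all genes tested had a median of -0.02 and 46.9% of them were higher. Unadjusted p-values under 0.05 were found for 5 members, all higher with GGOH, against a background of 2.86%. That count was 1 in a fit to those 2 groups alone, and 0 with the replicate number as a block, on log2(TPM + 1) and without GGOH mouse 2. Without GGOH mouse 5, the lowest of that group in the members' average level, it was 13. With rosuvastatin 30 members lay above vehicle and 10 below (median 0.13, all genes -0.02), and 2 had an unadjusted p under 0.05 (background 3.69%). On log2(TPM + 1), where all genes also shifted up, by a median of 0.11, the split was 38 above and 2 below. The combination stood at 21 above and 19 below rosuvastatin alone (median 0.01), with no unadjusted p under 0.05 (background 1.69%), and at 12 above and 28 below on log2(TPM + 1). Against vehicle it stood at 29 above and 11 below (median 0.13), with 3 members higher and 1 lower at that p (background 5.5%). Against GGOH it stood at 13 above and 27 below (median -0.18), with 1 higher and 8 lower (background 14.0%). On log2(TPM + 1) this was 17 above and 23 below (median -0.04, all genes 0.04), with 1 higher and 2 lower. In the interaction 8 members were positive and 32 negative (median -0.33), with 3 under that p (background 2.89%). These comparisons share groups, so their counts are not independent of each other. In TPM, Oas2 was the only member whose 5 values did not overlap between groups compared, in the combination against GGOH (background 1.46% of genes). The other comparisons of groups had no such member. Of all genes, 0.344% did so for rosuvastatin and 0.79% for GGOH against vehicle. It was 0.235% for the combination against rosuvastatin and 0.227% for the combination against vehicle. Rosuvastatin and GGOH were not set against each other. By CPM the Oas2 values overlapped in the combination against GGOH. Irf7 and Oas1g then did not overlap between rosuvastatin and vehicle, nor did Oas1g and Ifih1 between the combination and vehicle. The share of all genes was not counted by CPM.

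**Figure D1:**
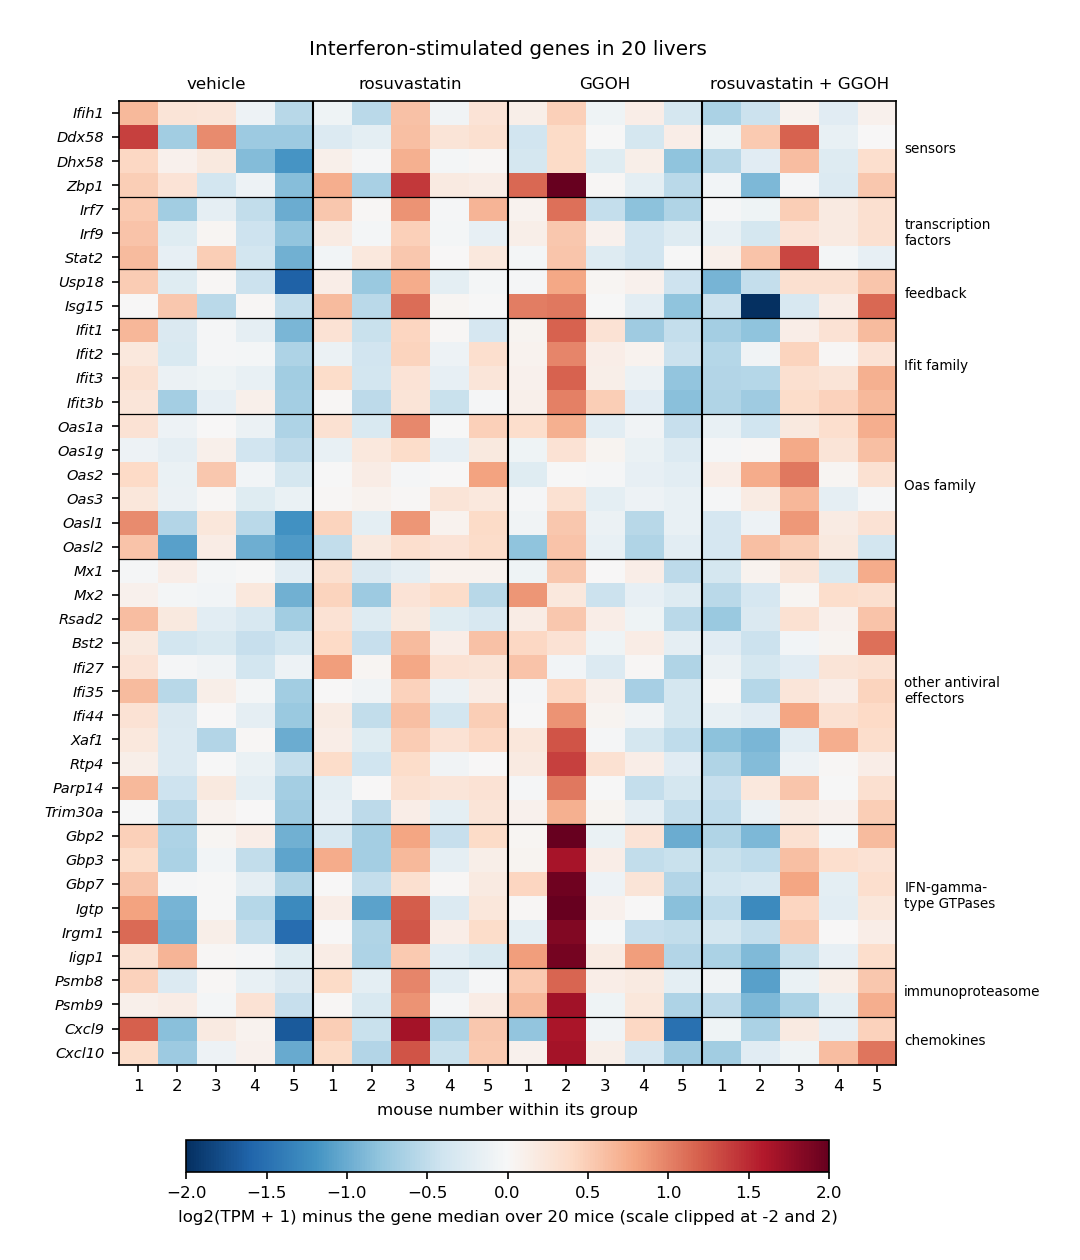
Each row is 1 of the 40 members, ordered by role, and each column 1 of the 20 mice in 4 groups. Colour gives log2(TPM + 1) minus the gene's median over the 20 mice, clipped at -2 and 2. GGOH mouse 2 forms a dark red column through the GTPases, the immunoproteasome and the chemokines but not through the Oas family, and vehicle mouse 5 forms a mostly blue column, being the lowest mouse in 25 members.

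Among the sensors, Zbp1, which binds left-handed nucleic acid and can start necroptosis, had the highest level. Zbp1 measured 15.4, 13.1, 8.05, 9.801 and 5.45 TPM in vehicle mice 1 to 5, and 18.1, 6.39, 30.1, 12.1 and 11.9 TPM in rosuvastatin mice 1 to 5. Zbp1 in GGOH mice 1 to 5 measured 24.7, 46.03, 10.8, 9.16 and 6.98 TPM, and in combination mice 1 to 5 10.2, 5.26, 10.4, 8.64 and 15.8 TPM. The GGOH group held both the highest value of all 20 and values inside the vehicle range, and the fitted difference from vehicle was 0.88 ± 0.45 (SE), which became 0.25 without GGOH mouse 2. Ifih1 (MDA5), which senses long double-stranded RNA, was among the 3 members with the smallest p in 2 comparisons. Ifih1 measured 10.3, 7.62, 7.55, 5.74 and 3.94 TPM in vehicle mice 1 to 5, and 5.83, 3.98, 9.86, 5.88 and 7.71 TPM in rosuvastatin mice 1 to 5. Ifih1 in GGOH mice 1 to 5 measured 6.88, 9.06, 5.796, 6.97 and 4.65 TPM, and in combination mice 1 to 5 3.65, 4.38, 6.62, 5.18 and 6.73 TPM. In TPM, the highest Ifih1 values were in vehicle mouse 1 and rosuvastatin mouse 3, and the combination group overlapped the vehicle group. By CPM the highest liver was vehicle mouse 2, at 42.4. The combination, at 18.8 to 25.978 CPM, then lay just below vehicle, at 26.003 to 42.4 CPM. By counts Ifih1 was -0.48 ± 0.17 (SE) in the combination against vehicle, with an unadjusted p of 0.0101 and an adjusted p of 0.817, and -0.22 ± 0.17 against rosuvastatin. Ddx58 (RIG-I), which senses viral RNA ends, ranged from 1.39 to 9.26 TPM, both extremes being vehicle mice. Dhx58 (LGP2), a regulator of both RNA sensors, ranged from 0.973 to 6.32 TPM.

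Of the transcription factors, Irf7, which amplifies type I interferon production, had the smallest p among members for rosuvastatin against vehicle. Irf7 measured 23.7, 9.63, 14.2, 11.1 and 7.601 TPM in vehicle mice 1 to 5, and 23.9, 16.4, 31.1, 15.9 and 26.3 TPM in rosuvastatin mice 1 to 5. Irf7 in GGOH mice 1 to 5 measured 17.1, 35.8, 11.3, 8.73 and 10.3 TPM, and in combination mice 1 to 5 15.8, 15.1, 23.2, 18.5 and 20.4 TPM. In TPM, rosuvastatin values overlapped vehicle values only through vehicle mouse 1, the sole vehicle mouse above 15 TPM. By CPM the rosuvastatin and vehicle values did not overlap but nearly met. The highest vehicle liver, mouse 1, was at 29.46 CPM and the lowest rosuvastatin liver, mouse 4, at 30.21 CPM. The fitted difference was 0.65 ± 0.26 (SE) with an unadjusted p of 0.0203 and an adjusted p of 0.973. It stayed between 0.56 and 0.78 when each mouse was left out in turn. The p-value moved more, as all 4 groups share the estimate of the spread. Without GGOH mouse 2, which is outside this comparison, edgeR gave 0.67, an unadjusted p of 0.0017 and an adjusted p of 0.983. Irf7 was 0.41 in the combination against vehicle and 0.32 in GGOH against vehicle, the latter turning to -0.07 without GGOH mouse 2. Irf9 and Stat2, the DNA-binding and a transactivating subunit of the type I complex, showed smaller differences from vehicle under rosuvastatin, 0.06 and 0.03. Their group means lay between 14.2 and 16.4 TPM for Irf9 and between 9.60 and 13.6 TPM for Stat2.

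The feedback pair is Isg15, a ubiquitin-like modifier conjugated to proteins after interferon, and Usp18, the protease that removes it and also dampens the type I receptor. Isg15 measured 23.6, 34.8, 15.9, 23.9 and 16.7 TPM in vehicle mice 1 to 5, and 36.9, 15.9, 52.4, 24.3 and 23.5 TPM in rosuvastatin mice 1 to 5. Isg15 in GGOH mice 1 to 5 measured 49.1, 49.8, 23.4, 20.1 and 13.1 TPM, and in combination mice 1 to 5 17.3, 4.95, 18.6, 26.2 and 53.5 TPM. In TPM, the combination group alone held both the lowest Isg15 value of all 20 livers, in mouse 2, and the highest, in mouse 5. The groups thus overlapped throughout. By CPM combination mouse 2 stayed the lowest, at 3.41. The highest was then GGOH mouse 1, at 35.5, with combination mouse 5 at 28.1. Fitted differences of Isg15 from vehicle were 0.08 in the rosuvastatin group, 0.29 in the GGOH group and -0.22 in the combination group. With each mouse left out in turn they ran from -0.08 to 0.42, from -0.0045 to 0.60 and from -0.63 to 0.12, so each could take either sign, and without GGOH mouse 2 the GGOH difference was 0.11. Usp18 ranged from 2.25 TPM in vehicle mouse 5 to 16.0 TPM in GGOH mouse 2 and differed from vehicle by 0.20, 0.46 and 0.18.

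The 4 Ifit proteins bind viral RNA that lacks the host's cap modification or act in complexes with those that do. Ifit3 had the highest level. Ifit3 measured 19.4, 14.3, 14.6, 13.8 and 9.26 TPM in vehicle mice 1 to 5, and 20.3, 11.8, 19.05, 13.7 and 18.5 TPM in rosuvastatin mice 1 to 5. Ifit3 in GGOH mice 1 to 5 measured 16.5, 36.6, 17.03, 14.3 and 8.602 TPM, and in combination mice 1 to 5 10.02, 10.2, 19.6, 18.9 and 26.1 TPM. The GGOH group again held both extremes, 36.6 TPM in mouse 2 and 8.60 TPM in mouse 5. All 4 Ifit genes were above vehicle in the GGOH group, by 0.31 for Ifit1, 0.56 ± 0.27 (SE) for Ifit2, 0.30 for Ifit3 and 0.48 for Ifit3b. The unadjusted p of Ifit2 was 0.0467. Without GGOH mouse 2 these differences were -0.05, 0.24, -0.02 and 0.20. The family median was 0.39 with GGOH (0.09 without GGOH mouse 2), 0.01 with rosuvastatin and 0.13 with the combination, each against vehicle.

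The Oas family, whose enzymes make the 2-5A messenger that activates RNase L, with Oasl1 and Oasl2 as relatives, had its largest median difference from vehicle in the combination. All 6 members were above vehicle in the rosuvastatin group (median 0.44) and in the combination (median 0.77), although none passed the test. Without vehicle mouse 1 and combination mice 2 and 3 these medians were 0.60 and 0.41, with 6 and 5 members above vehicle. All 6 were above GGOH in the combination (median 0.33), but 5 with other size factors, since Oas1a lay at 0.00. With GGOH the family median was 0.27, and -0.06 without GGOH mouse 2. Oasl1 had the highest level of the family. Oasl1 measured 9.69, 2.69, 5.503, 2.84 and 1.4003 TPM in vehicle mice 1 to 5, and 6.57, 3.88, 9.28, 4.84 and 6.299 TPM in rosuvastatin mice 1 to 5. Oasl1 in GGOH mice 1 to 5 measured 4.31, 7.06, 4.15, 2.78 and 4.03 TPM, and in combination mice 1 to 5 3.42, 4.19, 9.19, 5.23 and 5.83 TPM. Vehicle mice 1 and 5 spanned the whole range of Oasl1, and its difference from vehicle was 0.38 in the rosuvastatin group, 0.06 in the GGOH group and 0.24 in the combination group. Without vehicle mouse 1 these were 0.65, 0.32 and 0.49, and without GGOH mouse 2 the GGOH difference was -0.16.

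Oas1g was the member with the smallest p in the combination against vehicle. Oas1g measured 1.54, 1.4004, 1.94, 1.09 and 0.889 TPM in vehicle mice 1 to 5, and 1.46, 2.17, 2.52, 1.42 and 2.11 TPM in rosuvastatin mice 1 to 5. Oas1g in GGOH mice 1 to 5 measured 1.58, 2.32, 1.84, 1.49 and 1.26 TPM, and in combination mice 1 to 5 1.68, 1.77, 3.61, 2.27 and 3.13 TPM. In TPM, 3 of the 5 combination values lay above every vehicle value, and the lower ones overlapped all groups. By CPM the combination, at 2.48 to 3.88, and rosuvastatin, at 2.34 to 3.33, both lay above vehicle, at 1.61 to 2.29. The fitted difference was 0.74 ± 0.25 (SE) for the combination against vehicle (unadjusted p 0.0077, adjusted 0.817) and 0.60 ± 0.25 for rosuvastatin against vehicle (unadjusted p 0.0259, adjusted 0.973). Oasl2 followed Irf7 and Oas1g in order of p for rosuvastatin against vehicle. Oasl2 measured 4.204, 0.665, 2.92, 0.787 and 0.599 TPM in vehicle mice 1 to 5, and 1.51, 3.04, 3.45, 3.25 and 3.53 TPM in rosuvastatin mice 1 to 5. Oasl2 in GGOH mice 1 to 5 measured 1.02, 4.25, 2.17, 1.32 and 2.05 TPM, and in combination mice 1 to 5 1.79, 4.37, 3.98, 3.03 and 1.73 TPM. Vehicle values formed a low trio and a high pair, of which mouse 3 lay within the rosuvastatin range and mouse 1 above it. The difference of 0.62 ± 0.39 (SE) became 1.08 without vehicle mouse 1.

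Oas2 was at the bottom of the expression range but had the smallest p of any member in the combination against GGOH. Oas2 measured 0.8697, 0.303, 1.07, 0.374 and 0.113 TPM in vehicle mice 1 to 5, and 0.413, 0.576, 0.396, 0.426 and 1.497 TPM in rosuvastatin mice 1 to 5. Oas2 in GGOH mice 1 to 5 measured 0.201, 0.418, 0.402, 0.264 and 0.226 TPM, and in combination mice 1 to 5 0.557, 1.37, 1.94, 0.468 and 0.759 TPM. In TPM, every combination value lay above every GGOH value, although the closest pair, 0.468 and 0.418 TPM, nearly met. By CPM the 2 groups overlapped, with combination mouse 4 at 1.51 and GGOH mouse 2 at 1.61. The fitted difference was 1.70 ± 0.47 (SE), with an unadjusted p of 0.00168 and an adjusted p of 0.348. Against vehicle the combination was at 0.96 ± 0.46 and against rosuvastatin at 0.83 ± 0.45, and the interaction term was 1.58 ± 0.66. Without combination mouse 3 the differences from vehicle and rosuvastatin were 0.62 and 0.47. Leaving out vehicle mouse 1 and combination mice 2 and 3 together took the difference from GGOH to 0.70 and those from vehicle and rosuvastatin to -0.022 and -0.17. The livers with the highest Oas2 values (combination mice 3 and 2, rosuvastatin mouse 5, vehicle mice 3 and 1) were also those in which longer transcripts in general read high. Across 12590 genes, the rank correlation between transcript length and a gene's deviation from its mean over the mice was 0.47, 0.41, 0.26, 0.43 and 0.39 in those 5 livers. It was 0.19 or lower in the other 15. With length and GC offsets in the model, Oas2 differed between the combination and GGOH by 1.48, and what length contributed beyond that was not tested.

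Other antiviral effectors ranged from Ifi27 and Bst2 to Mx1, a dynamin-like GTPase that traps viral nucleoproteins, at 0.938 TPM. Ifi27 measured 109, 89.4, 86.1, 69.97 and 84.5 TPM in vehicle mice 1 to 5, and 162, 92.8, 156, 110.2 and 109 TPM in rosuvastatin mice 1 to 5. Ifi27 in GGOH mice 1 to 5 measured 135, 86.8, 74.6, 91.4 and 59.1 TPM, and in combination mice 1 to 5 83.5, 70.3, 77.5, 109 and 112 TPM. In TPM, rosuvastatin mice 1 and 3 exceeded every other liver in Ifi27, and the other groups overlapped broadly. By CPM GGOH mouse 1 was the highest liver, at 94.4, above rosuvastatin mice 1 and 3, at 92.8 and 73.4. The combination was at -0.45 ± 0.24 (SE) against rosuvastatin, the smallest p of a member there (unadjusted 0.0762), and this moved to -0.30 without rosuvastatin mouse 1. Rtp4, a chaperone of G-protein-coupled receptors that also restricts flaviviruses, was among the leading members in 3 comparisons. Rtp4 measured 29.8, 22.6, 27.3, 24.9 and 19.4 TPM in vehicle mice 1 to 5, and 35.7, 20.5, 35.5, 25.96 and 27.5 TPM in rosuvastatin mice 1 to 5. Rtp4 in GGOH mice 1 to 5 measured 31.3, 72.3, 34.1, 30.2 and 23.2 TPM, and in combination mice 1 to 5 17.8, 14.6, 25.5, 27.8 and 30.01 TPM. In Rtp4, 72.3 TPM in GGOH mouse 2 was 2.03 times the next highest liver, and the remaining GGOH mice lay at 23.2 to 34.1 TPM, inside the range of rosuvastatin. Rtp4 differed by 0.48 ± 0.22 (SE) between GGOH and vehicle and by -0.70 ± 0.22 between the combination and GGOH, and the interaction was -0.73 ± 0.31. The other effectors (Mx2, Rsad2 or viperin, Ifi35, Ifi44, Xaf1, Parp14 and Trim30a) had fitted differences from vehicle between -0.18 and 0.34 in the 3 treated groups.

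The GTPases typical of the interferon-gamma response, guanylate-binding proteins (Gbp2, Gbp3, Gbp7) and immunity-related GTPases (Igtp, Irgm1, Iigp1), had the largest median difference with GGOH of the 9 roles. All 6 were above vehicle with GGOH (median 0.85) and below GGOH in the combination (median -0.87). Without GGOH mouse 2 these medians were 0.15 and -0.07. Igtp measured 33.6, 9.37, 18.7, 12.3 and 7.16 TPM in vehicle mice 1 to 5, and 20.6, 8.44, 44.9, 15.4 and 21.99 TPM in rosuvastatin mice 1 to 5. Igtp in GGOH mice 1 to 5 measured 19.04, 142, 19.9, 18.8 and 10.01 TPM, and in combination mice 1 to 5 12.9, 7.17, 25.7, 16.04 and 22.04 TPM. The Igtp value of 142 TPM in GGOH mouse 2 was 3.18 times the next highest liver, rosuvastatin mouse 3, and the other 4 GGOH mice lay within the vehicle range. The fitted difference of GGOH from vehicle was 1.39 ± 0.52 (SE) with an unadjusted p of 0.0139, and without GGOH mouse 2 it was 0.22. Its interaction term went from -1.69 ± 0.73 to -0.54 without that mouse.

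Iigp1 was the most abundant member in every group. Iigp1 measured 213, 275, 175, 168 and 144 TPM in vehicle mice 1 to 5, and 189.6, 111, 246, 147 and 139 TPM in rosuvastatin mice 1 to 5. Iigp1 in GGOH mice 1 to 5 measured 306, 648, 192, 307 and 114 TPM, and in combination mice 1 to 5 110.5, 92.8, 125, 152 and 218 TPM. Combination values ran from 92.8 to 218 TPM and GGOH values from 114 to 648 TPM, so the groups overlapped through GGOH mice 3 and 5. The combination was at -1.21 ± 0.34 (SE) against GGOH, with an unadjusted p of 0.00187 and an adjusted p of 0.348, and at -0.84 without GGOH mouse 2. Gbp3 gave the second smallest p for GGOH against vehicle. Gbp3 measured 6.66, 2.87, 4.73, 3.26 and 1.88 TPM in vehicle mice 1 to 5, and 8.98, 2.73, 8.401, 4.25 and 5.47 TPM in rosuvastatin mice 1 to 5. Gbp3 in GGOH mice 1 to 5 measured 5.21, 17.6, 5.52, 3.26 and 3.37 TPM, and in combination mice 1 to 5 3.37, 3.21, 8.08, 6.49 and 6.28 TPM. Its difference of 0.87 ± 0.36 (SE) became 0.23 without GGOH mouse 2, whose 17.6 TPM was 1.96 times the next highest liver.

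Psmb8 and Psmb9 are inducible catalytic subunits that replace their constitutive counterparts in the immunoproteasome and alter the peptides shown on MHC class I. Psmb8 measured 40.2, 23.9, 29.5, 26.1 and 23.6 TPM in vehicle mice 1 to 5, and 37.9, 25.3, 58.3, 25.01 and 28.4 TPM in rosuvastatin mice 1 to 5. Psmb8 in GGOH mice 1 to 5 measured 41.9, 65.9, 31.7, 33.1 and 25.05 TPM, and in combination mice 1 to 5 27.4, 13.2, 26.4, 31.7 and 42.4 TPM. In TPM, GGOH mouse 2 and rosuvastatin mouse 3 were the highest livers for Psmb8, combination mouse 2 the lowest. By CPM GGOH mouse 1, at 50.9, lay above rosuvastatin mouse 3, at 44.0. In the combination against GGOH, Psmb8 was at -0.57 ± 0.26 (SE) and Psmb9 at -0.73 ± 0.33, with unadjusted p-values of 0.0415 and 0.0392. Without GGOH mouse 2 they were at -0.36 and -0.40, with unadjusted p-values of 0.189 and 0.226. Among the chemokines that attract CXCR3-bearing T cells, Cxcl9 had the higher level. Cxcl9 measured 32.8, 7.28, 15.9, 14.6 and 3.64 TPM in vehicle mice 1 to 5, and 19.9, 9.94, 46.03, 8.75 and 20.5 TPM in rosuvastatin mice 1 to 5. Cxcl9 in GGOH mice 1 to 5 measured 7.64, 45.03, 13.1, 18.8 and 4.29 TPM, and in combination mice 1 to 5 12.98, 8.601, 15.8, 12.3 and 19.6 TPM. In TPM, high Cxcl9 values occurred singly in 3 groups, in vehicle mouse 1, rosuvastatin mouse 3 and GGOH mouse 2. The combination had none above 20 TPM. By CPM rosuvastatin mouse 3 and GGOH mouse 2 stayed the highest livers, at 52.2 and 70.2. By CPM Cxcl9 was 26.5 in vehicle mouse 1, below vehicle mouse 4, at 36.5, and combination mice 3 and 5, at 30.6 and 30.5. Its difference from vehicle was 0.41 in the rosuvastatin group, 0.39 in the GGOH group and 0.02 in the combination group, and that of Cxcl10 was 0.35, 0.64 and 0.44. Without GGOH mouse 2 the GGOH difference turned to -0.23 for Cxcl9 and went to 0.06 for Cxcl10. Without rosuvastatin mouse 3 the rosuvastatin difference was 0.12 and 0.09.

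**Figure D2:**
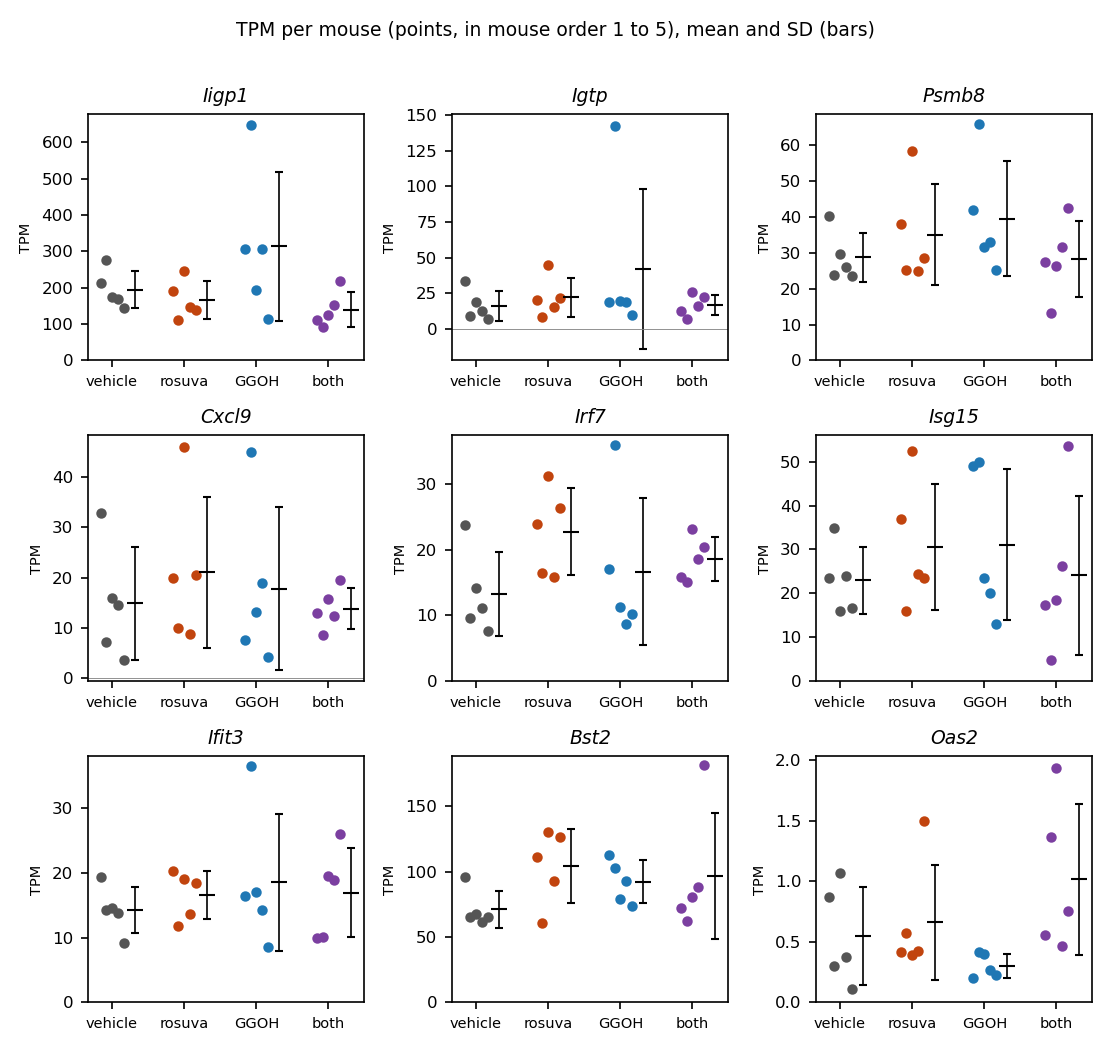
TPM of 9 members in each mouse (points, mice 1 to 5 from left to right in each group), with the group mean and SD (bar) beside them (rosuva, rosuvastatin; both, combination). In Iigp1 and Igtp 1 GGOH mouse, at 648 and 142 TPM, lies far above the others. In Oas2 the 5 combination values lie above the 5 GGOH values.

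Many of the high values came from a single liver, GGOH mouse 2. It was singled out after its values were seen, and what follows describes that liver. It had the highest TPM of the 20 in 21 of 40 members, against 4.8% of all genes tested, and in 25 members by CPM. Its TPM was more than 2 times the median of the other 19 in 22 members (55%, against 4.7% of all genes), and the median over the members was 2.24 times. By CPM the median was 1.96 times. The GTPases stood at 3.72 to 7.63 times the median of the other livers and were highest there in 6 of 6. The Ifit family stood at 2.33 to 2.52 times and was highest there in 4 of 4, as were both immunoproteasome genes. In TPM the Oas family was highest there in 0 of 6, with a median of 1.76 times, and Oas2 was at 0.98 times. By CPM Oas1a was highest there, at 9.66 against 9.54 in rosuvastatin mouse 3. The family's mean log2 CPM around each gene's mean was 0.59 there, exceeded only in combination mouse 3, at 0.94. Ranked among 10205 genes of at least 1 TPM by that ratio, Igtp was 10th, Gbp2 26th, Gbp7 32nd and Zbp1 41st.

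Markers of other cell types moved in that liver too. The 8 Kupffer cell markers summed to 481 TPM there, against 116 to 397 TPM in the other 19 mice, and 7 of the 8 were at their highest. The 5 monocyte markers summed to 511 TPM (others 97.0 to 271), of which the lysozyme gene Lyz2 made up 498 TPM, and 2 of the 5 were at their highest. The 5 neutrophil markers summed to 104 TPM (others 7.44 to 102), mostly S100a8 and S100a9, with 3 of the 5 at their highest and S100a9 higher in GGOH mouse 1 (55.3 against 53.9 TPM). The 4 B cell markers summed to 7.52 TPM (others 2.50 to 6.34), with 2 of the 4 at their highest. The 9 T and NK cell markers, at 11.1 TPM (others 2.45 to 14.1), the 6 lipid-associated macrophage markers, at 96.8 TPM (others 41.6 to 244), and the 6 hepatocyte markers, at 40179 TPM (others 25747 to 71669), lay within the range of the rest. No marker on these lists was at 0 in that liver. The part of these cells in the members' levels was not tested.

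**Figure D3:**
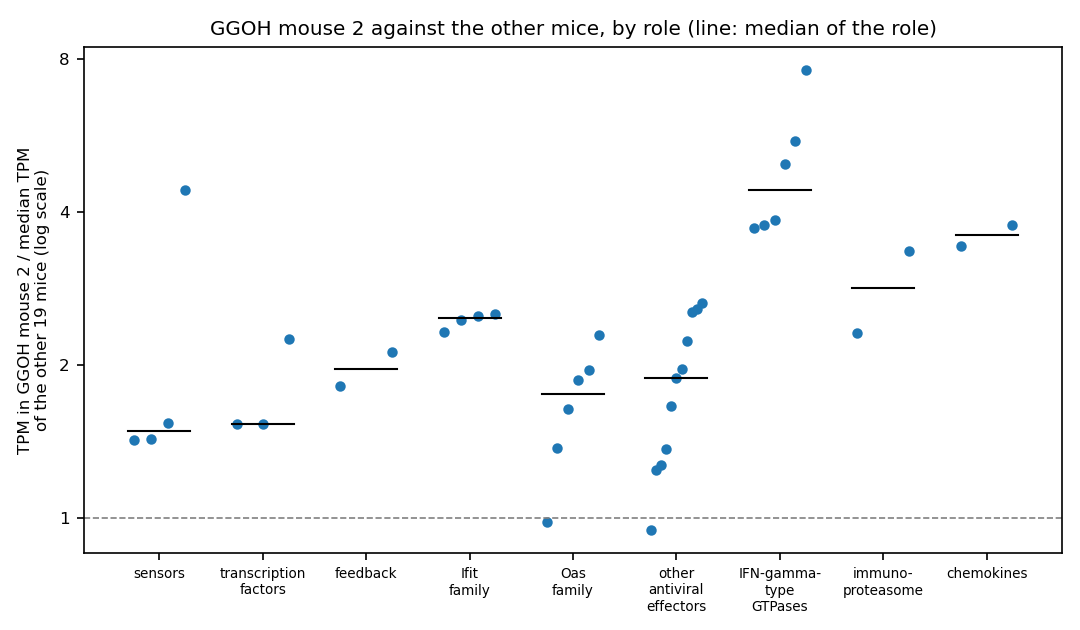
Each point is 1 member, and its height is the TPM in GGOH mouse 2 divided by the median TPM of the other 19 mice, on a log scale. Lines mark the median of each role and the dashed line a ratio of 1. The 6 GTPases lie between 3.72 and 7.63, while the Oas family has its median at 1.76.

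When GGOH mouse 2 was left out, GGOH against vehicle had 24 members above and 16 below, the median went from 0.32 to 0.05, and no member had an unadjusted p under 0.05. Of the 40 members, 13 turned direction in that comparison, against 0 to 5 when any other single mouse was left out. The combination against GGOH turned from a median of -0.18 to 0.12, with 25 members above and 15 below, and 12 members turned direction. The interaction moved from -0.33 to -0.06. Rtp4 with GGOH against vehicle went from 0.48 to 0.22, in the combination against GGOH from -0.70 to -0.43, and in the interaction from -0.73 to -0.48. Leaving out any other single mouse kept the GGOH median between 0.24 and 0.47.

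**Figure D4:**
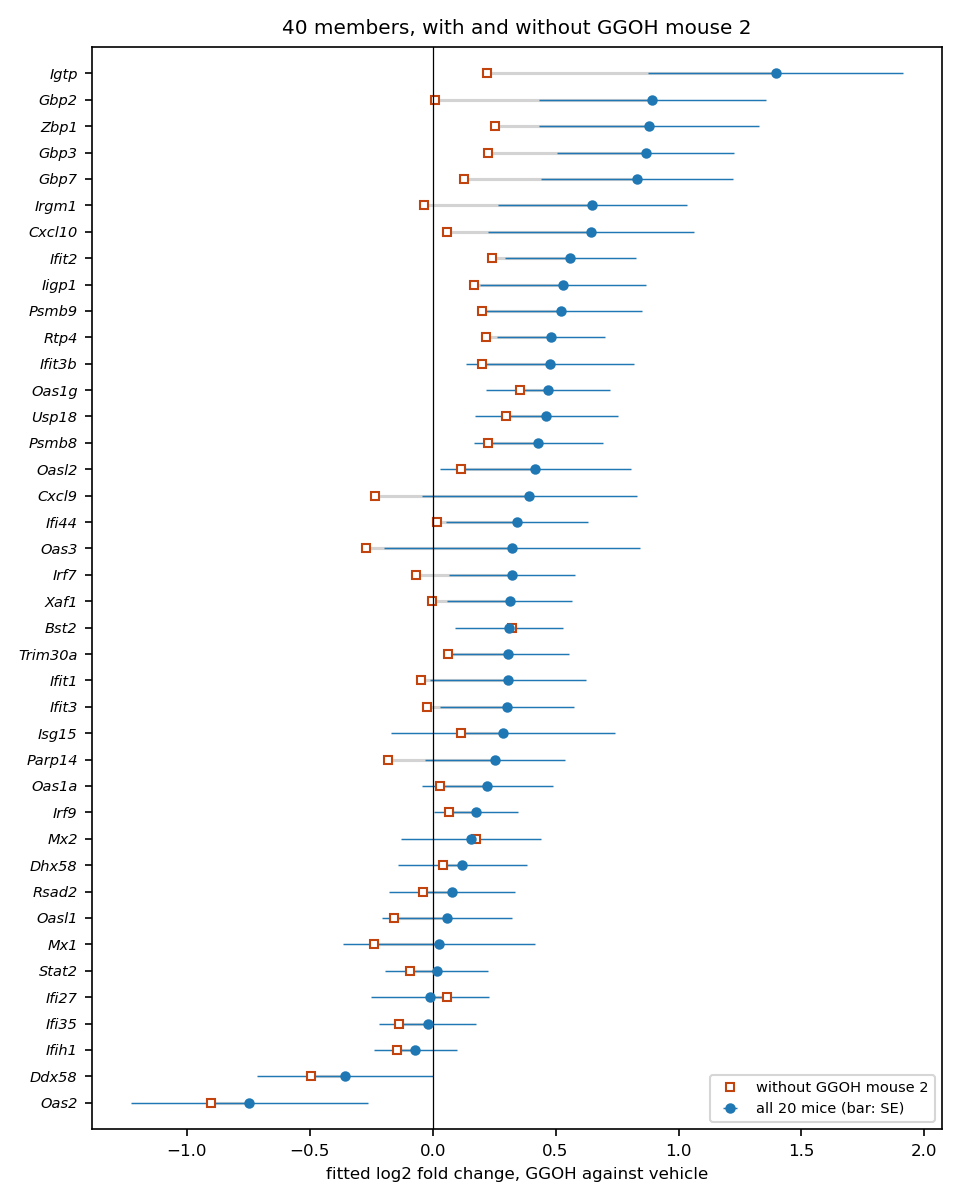
Fitted log2 fold change of each of the 40 members in GGOH against vehicle, with all 20 mice (filled points, bars are SE) and without GGOH mouse 2 (open squares). Igtp moves from 1.39 to 0.22 and Gbp3 from 0.87 to 0.23, while Bst2 and Mx2 hardly move.

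As a level per mouse, the mean over the 40 members of log2 CPM around each gene's mean was 1.00 in GGOH mouse 2, with 0.31 in GGOH mouse 1 next, and lowest in GGOH mouse 5 at -0.60. Group means were -0.14 ± 0.22 (SD, n = 5) for vehicle, 0.03 ± 0.23 for rosuvastatin, 0.11 ± 0.60 for GGOH and -0.00 ± 0.29 for the combination. The GGOH group thus had a spread more than 2 times that of any other group, and the group means differed by less than it. The lowest TPM of 25 members was in vehicle mouse 5, but by CPM it was lowest in 10, with GGOH mouse 5 lowest in 11.

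Members varied together within the groups. After removal of group means, the median Pearson correlation of log2 CPM over the 780 pairs of members was 0.54 across the 20 mice (median Spearman 0.49), and 0.00 over all pairs of genes tested. All points come from the same 20 libraries, so the value is a description. Without GGOH mice 2 and 5, the mice farthest from the median level, it was 0.38. The pair Psmb8 and Psmb9 reached 0.93, the GTPases had a median of 0.83 (0.63 without GGOH mouse 2), the Ifit family 0.82 (0.76) and the chemokines 0.85. The Oas family had a median of 0.35 (0.21), and between the Oas and immunoproteasome genes the median was 0.06 (-0.23).

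Of the pathway around the members, the ligands were at the edge of detection. None of 10 interferon genes passed the filter, and 7 (Ifna1, Ifna2, Ifna4, Ifna5, Ifne, Ifnl2 and Ifnl3) had no count in any library. Ifnb1 totalled 2 counts, Ifnk 3 and Ifng, the gene for interferon-gamma, 32 over all 20 livers. The highest Ifng values were 0.505 TPM in rosuvastatin mouse 2 and 0.453 TPM in GGOH mouse 2, too few counts to order the livers. At this depth such counts do not show that an interferon was absent.

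Receptors were present, with Ifnar2 highest at a mean of 52.5 TPM, and all 5 tested were above vehicle with GGOH, by a median of 0.10 (0.02 without GGOH mouse 2). The signalling genes (9 tested), the adaptors and nucleic-acid sensors (8) and the brakes (3) gave no call in any comparison. Irf1, a transcription factor induced by interferon-gamma, measured 39.6 TPM in GGOH mouse 2 and 12.2 to 25.3 TPM elsewhere. Socs1, an inhibitor of the receptor kinases, was also highest in that liver, at 0.285 TPM, and did not pass the filter.

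A further 35 interferon targets outside the member list, among them other guanylate-binding proteins and Ifitm genes, were counted in the same way. Of 34 tested, 26 were above vehicle with GGOH (median 0.23) and 8 below, 9 of them with an unadjusted p under 0.05, and 25 were below GGOH in the combination (median -0.30). Over all genes tested 46.9% were higher with GGOH and 2.86% had such a p. Without GGOH mouse 2 there were 23 above and 11 below vehicle (median 0.12), 1 of them with such a p, and 22 below GGOH in the combination (median -0.10). None passed the adjusted threshold in any comparison, and 18 of the 35 were highest in GGOH mouse 2. The smallest p with GGOH belonged to Gbp4, at 1.46 ± 0.43 (SE), Tgtp1, at 2.67 ± 0.87, and Gbp5, at 1.26 ± 0.45. Without GGOH mouse 2 they were at 0.73, 0.55 and 0.72. Tgtp1, a T-cell-specific GTPase induced by interferon-gamma, measured 204 TPM in GGOH mouse 2 and 1.53 to 48.1 TPM in the other 19. The most abundant of these targets, Ifitm3, which blocks viral fusion, averaged 348 TPM and was highest in rosuvastatin mouse 3.

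**Figure D5:**
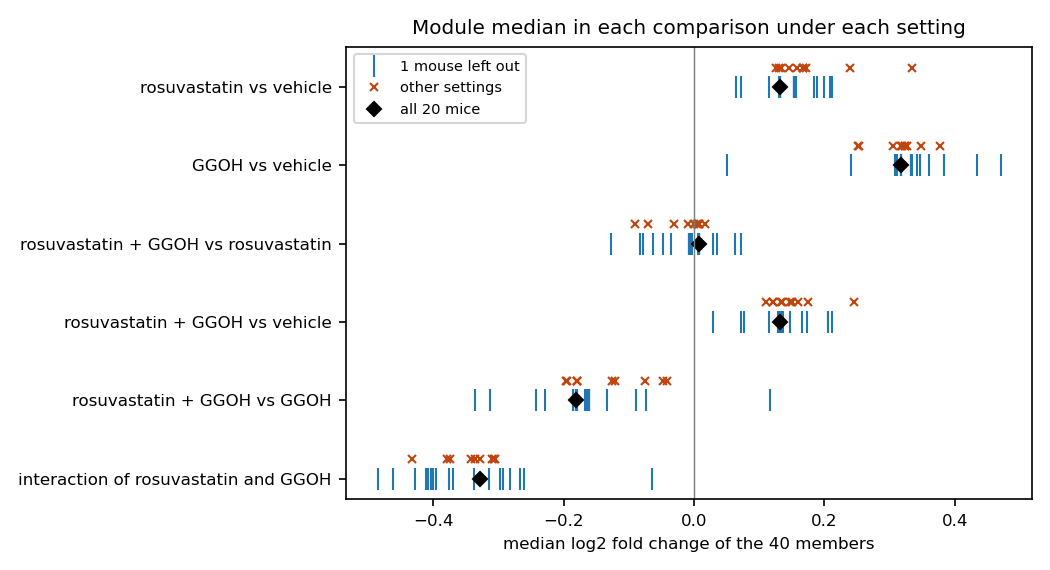
Median log2 fold change of the 40 members in each comparison with all 20 mice (diamond), with each mouse left out in turn (vertical ticks) and under the other settings (crosses). In GGOH against vehicle 1 tick lies at 0.05, the fit without GGOH mouse 2, apart from the rest at 0.24 to 0.47.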

How the data were processed

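Livers of 20 mice in 4 groups of 5 were profiled by poly(A) RNA sequencing. The tools named are kallisto 0.44.0, bcl2fastq 2.19 and DESeq2, and the build GRCm38, per the submitters' processing notes. The transcript annotation is not given in the sources used here. The authors deposited a table of expected counts per gene, estimated by kallisto and given as whole numbers, and a table of TPM values, which kallisto scales by transcript length and to a fixed sum per library. Library totals of 8548120 to 18373913 counts set the precision. 1 entry with no name (0.00801% to 0.0157% of a library) was left out.

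Counts were fitted with edgeR 4.0.16 (R 4.3.3): filterByExpr by group, TMM scaling, 1 model of group means over the 20 libraries, quasi-likelihood tests, and Benjamini-Hochberg adjustment over 12789 genes at 0.05. The SE is the log2 fold change divided by the square root of the F statistic. Log CPM used the TMM-scaled library totals and a prior count of 2. On simulated counts for rosuvastatin against vehicle, over 12668 genes, the test recovered 58% of 2-fold and 100% of 4-fold changes, with 7 false calls. The changed genes were drawn only from those with higher mean counts, so the recovery does not cover members with few counts, such as Oas3.

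Values by mouse are given for the member with the highest mean TPM in each role and the 3 with the smallest p in each comparison. The members, lists and tests were chosen with earlier results of these data known. Alternatives were DESeq2 1.42.0, its size factors in edgeR, no filter or a stricter one, limma 3.58.1 on log2(TPM + 1) and log2(TPM + 0.1), a replicate block, only the groups compared, each mouse left out, and 3 doubted libraries left out. Length and GC offsets were added after seeing the data. No batch is named in the labels, so none was fitted. Promoters and gene lengths came from RefSeq (GRCm38.p6) and GENCODE M21. 1 gene of the lists is not reported here.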

Additional observations from a re-analysis of the deposited data

Results flagged for a closer look

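In 16 of 164 groups of 5 values (the TPM of each of the 40 members and their mean log2 CPM level, in 4 groups), 1 mouse stood apart from the other 4 by Dixon's test. For normally distributed values, chance alone marks about 1 group in 20, which would be 8.2. TPM was not log-transformed here, so that number is only a rough guide. All 16 were TPM values, and the mean log2 CPM level marked no mouse in any group. Of the 16, 10 were GGOH mouse 2, each time above the other GGOH mice. They were Igtp at 142 TPM, Rtp4 at 72.3, Irgm1 at 64.4, Xaf1 at 29.4, Gbp2 at 28.2, Cxcl10 at 21.9, Gbp3 at 17.6, Gbp7 at 13.2, Parp14 at 5.72 and Ifi44 at 5.55 TPM. Members vary together, so these are not 10 independent events. The other 6 were spread over 5 livers. Rosuvastatin mouse 3 was high in Psmb9 at 42.4 TPM and in Dhx58 at 6.32 TPM. Rosuvastatin mouse 5 was high in Oas2 at 1.5 TPM, and rosuvastatin mouse 1 was low in Oasl2 at 1.51 TPM. Bst2 was high in vehicle mouse 1, at 96.2 TPM, and in combination mouse 5, at 181 TPM. By CPM, Bst2 in vehicle mouse 1, at 42.0, lay inside the range of the other vehicle mice, 37.3 to 63.0. Combination mouse 5 stayed the highest of its group by CPM, at 99.8.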

How the results depend on the processing

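No member was called in any comparison under any alternative run, and the smallest adjusted p of a member was 0.18, in the combination against GGOH without GGOH mouse 5. The differences of the 3 members with the smallest p in each comparison kept their direction under every alternative run, except Oas2 without vehicle mouse 1 and combination mice 2 and 3, at -0.17 in the combination against rosuvastatin and -0.022 against vehicle. Of all 40 members, 12 to 22 per comparison turned direction when some single mouse was left out, among them Irf7, Ifit1, Ifit3 and Cxcl9 for GGOH against vehicle without GGOH mouse 2. The members' median, with each mouse left out, ran from 0.05 to 0.47 for GGOH against vehicle, 0.06 to 0.21 for rosuvastatin against vehicle, -0.13 to 0.07 for the combination against rosuvastatin, 0.03 to 0.21 against vehicle and -0.34 to 0.12 against GGOH, and -0.49 to -0.06 for the interaction. GGOH mouse 2 gave the 0.05, the 0.12 and the -0.06. Same-numbered mice did not regularly deviate together (30 correlations from -0.46 to 0.51, 13 over 0.1, 5 of 20 libraries closest to their own number). The main fit did not pair mice by number, and this check cannot show how they were housed or sampled. With the replicate block the medians were 0.15 for rosuvastatin and 0.32 for GGOH against vehicle, 0.02, 0.16 and -0.13 for the combination against rosuvastatin, vehicle and GGOH, and -0.31 for the interaction, with 0 members called and, at an unadjusted p under 0.05, 2, 0, 0, 2, 4 and 0 members. The fit to only the groups compared was not run for the interaction, which needs all 4. With 5 mice a group, the common biological coefficient of variation was 0.3, and members under 1 TPM rest on few counts.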
